A study of Mus musculus with 4 samples.

Results

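Rhox5, Rhox6 and Rhox9 are X-linked homeobox genes, and their RNA was followed through the XX mouse gonad from E11.5 to E14.5. The genes were chosen by name, as 3 of the 19321 genes and 3 of the 27 Rhox genes in the deposited table. They were read in germ cells, defined as cells with a unique molecular identifier (UMI, 1 captured transcript) of at least 3 of the 6 markers Dazl, Ddx4, Dnd1, Mael, Dppa5a and Mov10l1, and in each class of somatic cells. The rule found 245, 650, 753 and 2410 germ cells in the 4 libraries, which run from E11.5 to E14.5 by whole days, or 4058 of the 18965 cells kept. Values given 4 at a time below follow this order. The gonads came from C57BL/6 XX embryos without a stated treatment or allele and were digested to single cells for the 10x Chromium 3′ version 2 kit. There was 1 library per stage, so no difference between stages was tested, no p-value is given, and stage and library cannot be told apart. The labels do not say how many embryos were pooled.

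Rhox genes code for homeodomain transcription factors and lie in a cluster on the X chromosome that has been amplified in rodents. The family is known from reproductive tissue: Rhox5 (first named Pem) from Sertoli cells, ovary, placenta and embryonic stem cells, Rhox6 and Rhox9 (Psx1 and Psx2) from placenta and primordial germ cells, and Rhox8 from the supporting cells of the gonad. The cluster is a textbook case of genes that DNA methylation keeps silent in most somatic cells.

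The sequences show how alike the members are, which bears on whether 3′ reads can tell them apart. Positions are those of GENCODE M21 on mm10. Rhox5 (ENSMUSG00000095180.8) spans chrX:37804842-37808876 on the plus strand, Rhox6 (ENSMUSG00000006200.3) chrX:37826910-37829857 on the plus strand and Rhox9 (ENSMUSG00000068048.8) chrX:37899097-37901770 on the minus strand. All 3 lie within 96.9 kb, with Rhox7a, Rhox8 and Rhox7b between Rhox6 and Rhox9. Each has 4 exons in its longest coding transcript. The 60 coding bases below end the homeobox part in exon 3 with 27 bases and open exon 4 with 33, at chrX:37806093-37806119 and chrX:37808615-37808647 for Rhox5, chrX:37828434-37828460 and chrX:37829624-37829656 for Rhox6, and chrX:37900280-37900306 and chrX:37899267-37899299 for Rhox9. Each is written 5′ to 3′ on the coding strand, and capitals mark bases unlike Rhox9.
Rhox5: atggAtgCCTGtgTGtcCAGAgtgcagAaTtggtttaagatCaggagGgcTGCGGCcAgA
Rhox6: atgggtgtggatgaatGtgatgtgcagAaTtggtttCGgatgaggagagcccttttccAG
Rhox9: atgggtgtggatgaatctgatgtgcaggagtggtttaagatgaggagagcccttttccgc
Rhox6 had 53 of these 60 bases in common with Rhox9 and Rhox5 had 37. Over the whole coding sequence Rhox6 and Rhox9 were identical at 617 of 681 bases (90.6%), while Rhox5 matched Rhox9 at 380 of 552 aligned bases (68.8%). Exact 50-base windows were shared by 16.5% of the Rhox6 transcript with Rhox9 and by 19.1% of the Rhox9 transcript with Rhox6, and by 0% of the last 300 bases of either. Rhox5 shared 0% of its windows with another Rhox gene.

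The libraries held between 69458291 and 80377418 UMIs over 4787 to 4916 cells. Germ cells had a median of 31268, 27740, 24776 and 15541 UMIs in stage order, and somatic cells 13833, 12149.5, 10462.5 and 9870. A barcode occurred in more than 1 library for 175 of 19208 barcodes, and 60 germ cells carried one. The 6 markers of the germ cell rule summed to 3317, 2904, 2182 and 2297 CPM (counts per 1000000 UMIs) in germ cells and to 23.5, 24.7, 31.6 and 48.3 CPM in supporting cells. Of the cells that met the rule, 2, 6, 22 and 172 lay outside the clusters named as germ cells. At E14.5 122 of them lay in an unnamed cluster with a median doublet score of 0.1875. The markers of erythroid cells, which germ cells should lack, summed to 2700, 1683, 1439 and 4542 CPM in germ cells; their part in the results below was not tested. The E14.5 library went against its XX label in one respect. UMIs of the Y-linked genes Ddx3y, Eif2s3y, Kdm5d and Uty were found in 435 of its 2410 germ cells (18.0%) and 457 of its 2013 somatic cells (22.7%). In the other 3 libraries 0 germ cells had one, which allows shares of up to 1.22%, 0.462% and 0.398%. Xist, the RNA of the inactive X chromosome, had a UMI in 99.9% of the E14.5 somatic cells and in all 207 of those with at least 2 Y-linked UMIs. In germ cells Xist had a UMI in 74.7%, 49.2%, 53.9% and 40.7%, and in 42.9% of the 205 E14.5 germ cells with at least 2 Y-linked UMIs. Amh, a product of male supporting cells, was at 0.862 CPM (0.316 to 1.876) in the E14.5 supporting cells, from 6 UMIs. In those of E13.5 it was at 0.521 CPM (0.260 to 0.932), from 11 UMIs. These intervals overlap, so no difference in Amh is shown. Sox9, read in the same cells, went the other way, at 12.498 CPM (10.01 to 15.42) at E14.5 and 17.56 (15.82 to 19.44) at E13.5. Most E14.5 results on the members are therefore given with and without the cells that carried a Y-linked UMI; the likeness of profiles and the shares of X-linked UMIs are given with them only. A cell with 0 such UMIs is not shown to lack a Y chromosome, and the cause of the Y-linked UMIs was not tested.

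In germ cells, all 3 genes were abundant at E11.5 and E12.5 and lower at E14.5, Rhox6 the most so. Levels are CPM from the summed UMIs of the cells, with the exact 95% Poisson interval in parentheses, which covers counting error only. The kit counts 1 tag per transcript near its 3′ end, so levels are not divided by length. Rhox5 stood in stage order at 609.5 CPM (592 to 627), 668 (656 to 679), 512 (502 to 522) and 464 (458 to 471). Rhox6 stood at 654 CPM (636 to 672), 629.6 (618 to 641), 469 (460 to 479) and 340.0 (334 to 346). Rhox9 stood at 867 CPM (846 to 887), 921 (908 to 935), 747 (735 to 760) and 578 (571 to 586). The E11.5 and E12.5 libraries were thus the 2 high ones and the E14.5 library the lowest for each gene. In the 1975 germ cells of E14.5 with no Y-linked UMI, the levels were 452 CPM for Rhox5, 331 for Rhox6 and 563 for Rhox9; in the 435 cells with one they were 516, 377 and 644.

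From E11.5 to E14.5 the log2 ratio was -0.39 for Rhox5 (exact binomial interval -0.44 to -0.35), -0.94 for Rhox6 (-0.99 to -0.90) and -0.58 for Rhox9 (-0.62 to -0.55). These are 1.31, 1.92 and 1.499 times less. A gene counted as different when both libraries together held 50 UMIs of it or more, its higher level reached 20 CPM, the levels differed by a ratio of 4 or more and their intervals stayed apart. By this measure 0 of 3 members were lower, against 1.69% of the 5739 genes that met the minimums. With a ratio of 1.5, added after the values were seen, 1 of 3 (Rhox6) was lower, against 16.5% of all genes, and 0 of 3 were higher, against 37.1%. Rhox9 fell just short of that limit. Without the cells with a Y-linked UMI the log2 ratios were -0.43, -0.98 and -0.62, which put Rhox9 past it too. There 17.1% of all genes were lower. A germ cell rule of at least 4 markers gave 2 of 3, against 17.0% of all genes. Median-of-ratios scaling moved every log2 ratio by -0.38 and so gave 3 of 3, against 29.0% of all genes. The median log2 ratio of the 5739 genes was 0.29, and the members stood at percentiles 21.9 (Rhox5), 8.78 (Rhox6) and 16.6 (Rhox9) of that distribution.

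The lower levels did not appear at 1 step. Between E11.5 and E12.5 the log2 ratios were 0.13, -0.06 and 0.09 for Rhox5, Rhox6 and Rhox9. Between E12.5 and E13.5 they were -0.38, -0.42 and -0.30, and between E13.5 and E14.5 -0.14, -0.46 and -0.37 (-0.18, -0.50 and -0.41 without the cells with a Y-linked UMI). At each step 0 of 3 were lower by a ratio of 1.5, against 1.82%, 4.32% and 9.31% of the genes that met the minimums. Rhox5 had most of its difference at the earlier of these last 2 steps, and Rhox6 and Rhox9 differed by about the same at both. The balance between the genes shifted with it. The UMIs of Rhox9 per UMI of Rhox6 went from 1.32 (1.28 to 1.37) at E11.5 over 1.46 and 1.59 to 1.70 (1.67 to 1.74) at E14.5, in the order of the stages. Those of Rhox5 per UMI of Rhox6 were 0.932, 1.06, 1.09 and 1.37, so Rhox5 had the fewest UMIs of the 3 at E11.5 and Rhox6 at the other stages. At E14.5 the values were 1.70 and 1.36 without the cells with a Y-linked UMI.

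**Figure D1:**
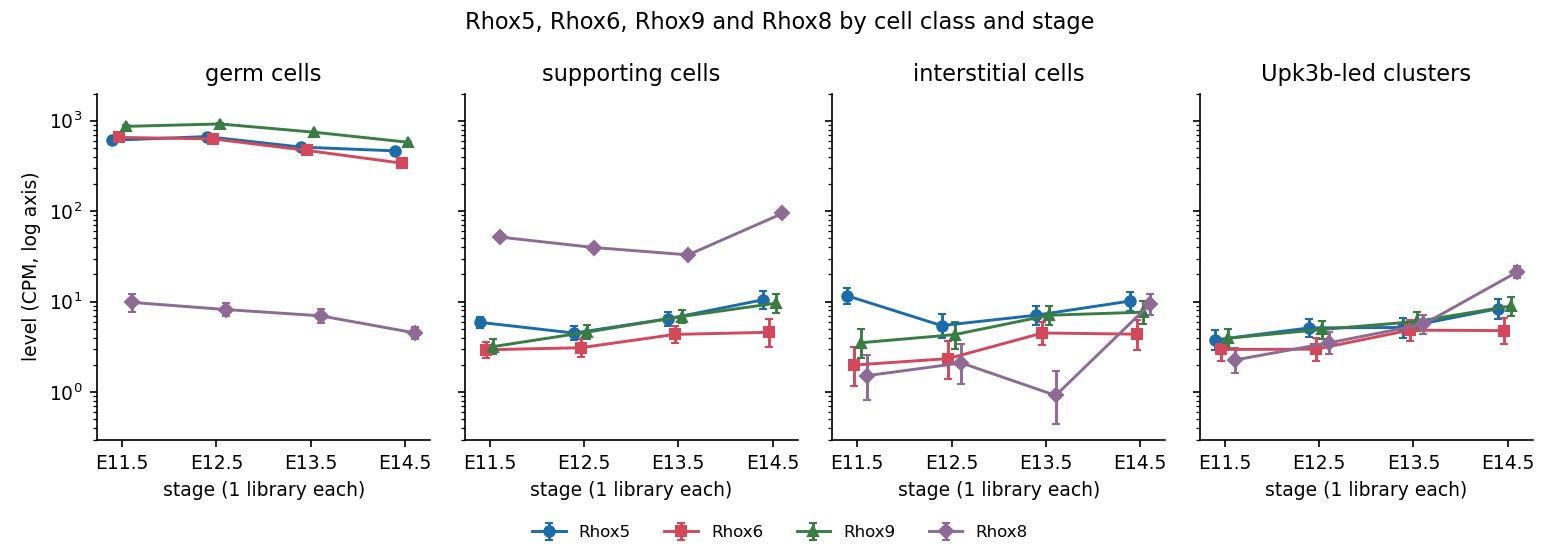
Levels of Rhox5, Rhox6, Rhox9 and Rhox8 (CPM, log axis) by stage in germ cells and in 3 somatic classes, 1 library per stage; bars are exact 95% Poisson intervals of counting error. In germ cells the 3 members lie between 340.0 and 921 CPM and Rhox8 at or below 9.83, while in supporting cells Rhox8 lies above the 3 members at every stage.

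Most germ cells carried all 3 transcripts, and fewer did so at the later stages. To set aside the difference in depth, 5000 UMIs were drawn at random from every cell, a depth that no cell fell short of. A UMI of Rhox9 was then found in 96.3%, 96.8%, 93.5% and 83.5% of germ cells in stage order. For Rhox5 the shares were 92.2%, 93.7%, 86.2% and 80.9%, and for Rhox6 91.8%, 93.4%, 84.6% and 71.0%. Before thinning, the E14.5 shares were 95.9% for Rhox9, 93.8% for Rhox5 and 92.1% for Rhox6. In somatic cells thinned the same way, the shares were 2.62% to 4.22% for Rhox9, 2.49% to 4.37% for Rhox5 and 1.68% to 2.43% for Rhox6. All 3 genes had a UMI in the same cell in 82.4% (Clopper-Pearson interval 77.1 to 87.0), 85.1% (82.1 to 87.7), 71.3% (67.9 to 74.5) and 55.0% (53.0 to 57.0) of germ cells. Of the 1975 E14.5 cells with no Y-linked UMI, 53.4% had all 3, and 82.6%, 79.8% and 70.0% had a UMI of Rhox9, Rhox5 and Rhox6. Germ cells with a UMI of none of the 3 numbered 1, 2, 16 and 108, or 0.408%, 0.308%, 2.12% and 4.48% (4.91% at E14.5 without the cells with a Y-linked UMI).

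**Figure D2:**
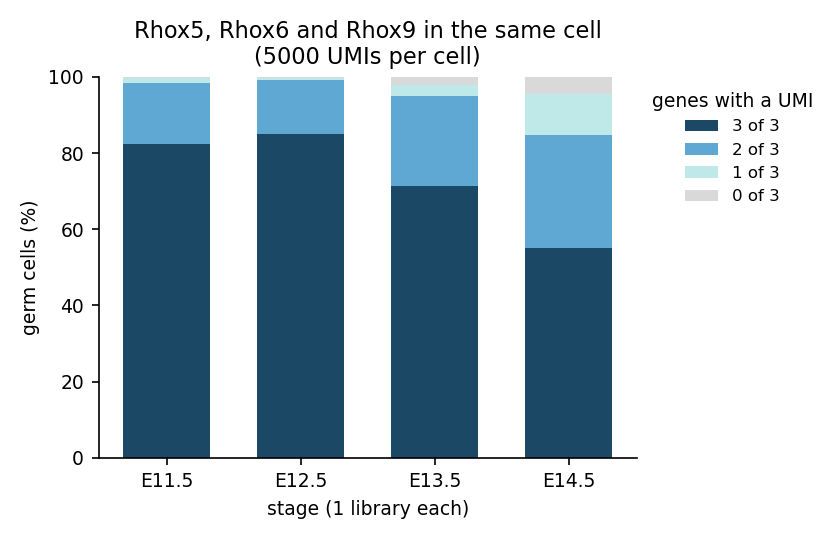
Germ cells (%) with a UMI of 3, 2, 1 or 0 of Rhox5, Rhox6 and Rhox9 in each library, after every cell was thinned to 5000 UMIs. The share with all 3 is 82.4% at E11.5 and 55.0% at E14.5.

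The spread between germ cells was wider than sampling of UMIs alone gives, and among the members it was widest for Rhox9 at E14.5. In thinned cells the median germ cell had 3 UMIs of Rhox5 at E11.5 and 2 at E14.5, 3 and 1 of Rhox6, and 4 and 2 of Rhox9. The variance over the mean, which is 1 for Poisson sampling, was 1.42 for Rhox5 at E11.5 and 1.65 at E14.5, 1.44 and 1.64 for Rhox6, and 1.63 and 2.06 for Rhox9. Other germ cell genes at E14.5 were at 3.04 (Stra8), 2.05 (Dppa3), 1.49 (Dazl), 1.39 (Pou5f1) and 1.06 (Ddx4). A spread wider than Poisson sampling was thus not particular to the members. As a description over cells of 1 library, Rhox6 and Rhox9 had a Pearson correlation of 0.28 over the 245 cells of E11.5 and 0.39 over the 2410 cells of E14.5. At E14.5 Rhox9 had a correlation of 0.45 with Dppa3, a gene of early germ cells, and of -0.30 with Stra8, the gatekeeper of meiotic entry. With cells that carried a Y-linked UMI left out, the E14.5 correlations were 0.39, 0.45 and -0.28, and the variance over the mean of Rhox9 was 1.99. These counts are sparse, and all cells of a stage share a library.

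Within the E14.5 library, the members were lower the more meiotic transcripts a germ cell held. Germ cells of each library were put in order by their share of UMIs from 13 meiosis genes (among them Stra8, Rec8, Sycp1 and Sycp3), none of them a Rhox gene, and divided into 5 equal sets. At E14.5 Rhox9 was at 848 CPM in the set with the fewest meiosis UMIs, then at 691, 538 and 399.9, and at 245 in the set with the most. Rhox5 was at 629, 527, 481, 377 and 195 CPM, and Rhox6 at 496, 382, 295, 256 and 184 CPM. The 482 cells of the lowest set were thus near the E11.5 level of all germ cells for Rhox5 and Rhox9, and below it for Rhox6. The highest set was lower than the lowest by a log2 ratio of -1.69 for Rhox5 (-1.78 to -1.60), -1.43 for Rhox6 (-1.53 to -1.34) and -1.79 for Rhox9 (-1.87 to -1.71), or 3.22, 2.70 and 3.46 times. The median cell of the lowest set had 19576.5 UMIs and that of the highest 13019.5. With every cell thinned to 5000 UMIs before it was placed, the log2 ratios were -1.47, -1.46 and -1.72, and without the cells with a Y-linked UMI -1.70, -1.36 and -1.82. In those remaining cells Rhox9 was at 827, 679, 528, 381 and 235 CPM, Rhox5 at 616, 522, 467, 357 and 190.1, and Rhox6 at 478, 368, 296, 249 and 186.

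The earlier libraries showed this order weakly or not at all. At E13.5 the set with the most meiosis UMIs had 396 CPM of Rhox5 against 557 in the set with the fewest, 318 against 519 of Rhox6 and 573 against 778 of Rhox9. The log2 ratios there were -0.49, -0.71 and -0.44, and -0.34, -0.40 and -0.30 with thinned cells. The lower 4 sets had 511 to 557 CPM of Rhox5 and 768 to 795 CPM of Rhox9, so the top set stood apart for these genes. At E12.5 the top set was the higher one, with 694 against 613 CPM of Rhox5, 642 against 605 of Rhox6 and 991 against 846 of Rhox9. For Rhox6 the direction turned with thinned cells, from a log2 ratio of 0.08 to -0.051 (-0.26 to 0.15). With thinned cells Rhox5 was at 0.18 (-0.02 to 0.38) and Rhox9 at 0.10 (-0.07 to 0.27). All of these thinned intervals include 0. At E11.5, where 0 UMIs of Stra8 were found in thinned germ cells, the 5 sets followed no order. They lay between 581 and 629 CPM for Rhox5, 576 and 719 for Rhox6 and 825 and 904 for Rhox9.

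**Figure D3:**
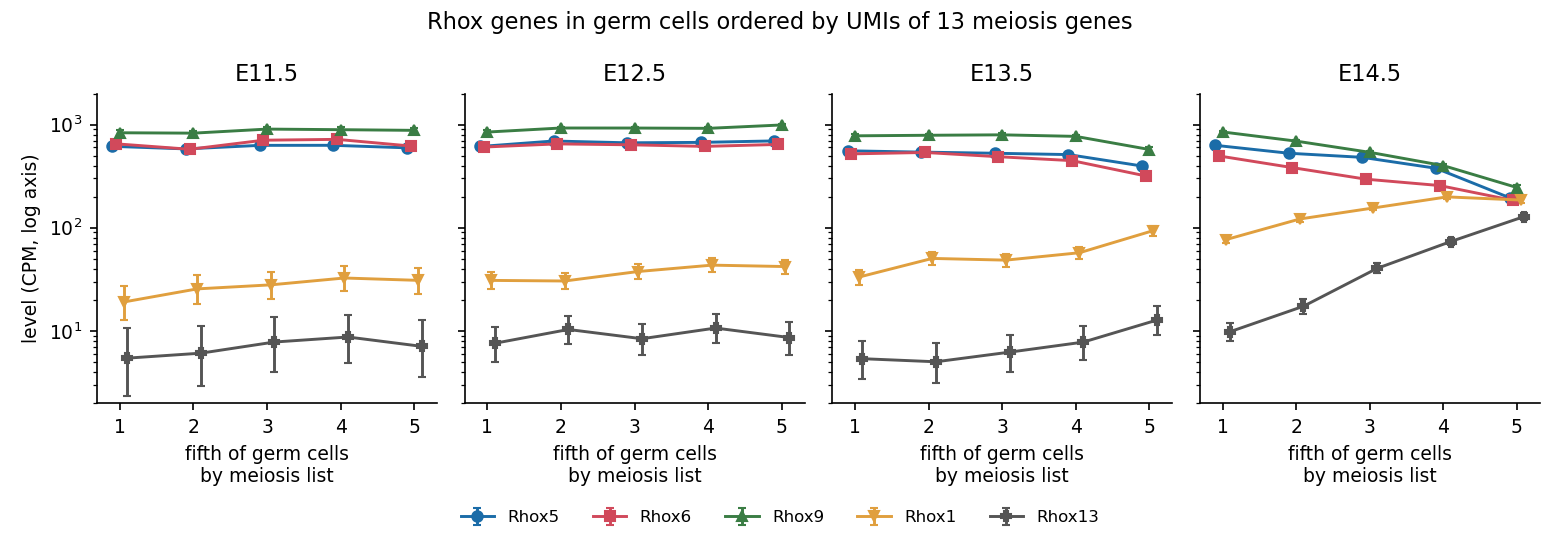
Levels (CPM, log axis) of Rhox5, Rhox6, Rhox9, Rhox1 and Rhox13 in 5 equal sets of germ cells of each library, placed from left to right by their share of UMIs from 13 meiosis genes; bars are exact 95% Poisson intervals. At E14.5 the 3 members run down, Rhox9 from 848 to 245 CPM, while Rhox13 runs up from 9.79 to 128 CPM.

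Single marker genes gave the same order. Stra8 and Sycp3, used here and below, are among the 13 meiosis genes, so these splits are not independent of the sets above. In thinned cells Stra8 had a UMI in 252 of the 753 germ cells of E13.5 and in 2115 of the 2410 of E14.5. At E13.5 the cells with Stra8 had 436 CPM of Rhox5 against 545 in the others, 353 against 519.9 of Rhox6 and 622 against 802 of Rhox9. At E14.5 the values were 438 against 609 CPM, 311 against 497 and 533 against 821. All 6 comparisons put the cells with Stra8 lower, by log2 ratios from -0.32 (Rhox5, E13.5) to -0.68 (Rhox6, E14.5). Leaving out cells with a Y-linked UMI, the E14.5 values were 429 against 580.0 CPM for Rhox5, 305 against 477 for Rhox6 and 523 against 788 for Rhox9.

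A second split of the E14.5 germ cells used Sycp3, a part of the meiotic chromosome axis, and Pou5f1, the pluripotency factor that germ cells lose in meiosis. Cells were placed by their UMIs of these genes after thinning. Thinned germ cells of E14.5 held a mean of 0.815 UMIs of Pou5f1. No such UMI was found in 50.7% of them, against 44.3% under Poisson sampling. A cell without a UMI of Pou5f1 is thus not shown to have lost it. Rhox9 was at 731 CPM in the 867 cells without a UMI of Sycp3, at 591 in the 630 cells with both genes and at 382 in the 913 cells with Sycp3 alone. Rhox5 was at 556, 502 and 323 CPM, and Rhox6 at 409.9, 353 and 244 CPM. For each gene the cells with a UMI of both Sycp3 and Pou5f1 lay between the other sets. The order was the same in the cells with no Y-linked UMI, with 716, 583 and 372 CPM for Rhox9.

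Set against the somatic cells of the same library, all 3 genes were far more abundant in germ cells. Somatic cells are all cells that fail the germ cell rule and lie outside erythroid clusters. Rhox5 was at 12.8, 9.78, 7.78 and 9.41 CPM in somatic cells in stage order, Rhox6 at 10.9, 8.54, 5.06 and 4.57, and Rhox9 at 14.2, 12.1, 7.71 and 8.67. The log2 ratio of germ over somatic cells at E13.5 was 6.04 for Rhox5, 6.53 for Rhox6 and 6.60 for Rhox9. Over the other stages it lay between 5.58 and 6.09 for Rhox5, 5.91 and 6.22 for Rhox6, and 5.93 and 6.25 for Rhox9. All 3 genes passed the ratio of 4 at each stage, against 3.91%, 4.3%, 5.2% and 5.14% of the genes that met the minimums. Among those 6135 to 6788 genes the members ranked from 20 to 72 by this ratio. Their somatic levels were below 20 CPM at each stage, so the minimum admitted them through germ cells, where they were high. The count and the ranks are thus a description. At E14.5 without the cells with a Y-linked UMI, the log2 ratios were 5.52, 6.26 and 6.02. When cells were thinned to 5000 UMIs before the germ cell rule was applied, so that germ cells which lost markers counted as somatic, the E13.5 log2 ratios were 3.39, 3.41 and 3.44.

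Much of the somatic signal at the early stages sat in a few cells that cluster with germ cells but have fewer than 3 of the markers. At E11.5 these 35 cells held 53.9% of the somatic UMIs of Rhox5, 75.1% of those of Rhox6 and 76.5% of those of Rhox9. At E12.5 17 such cells held 52.6%, 64.9% and 62.4%, and at E14.5 there were 0 such cells. Without them the log2 ratios were 6.67, 7.89 and 7.999 at E11.5 and 7.16, 7.70 and 7.65 at E12.5.

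The classes of somatic cells, named from marker genes after clustering, stand for cells like those named. The clustering used 2000 variable genes, from which every Rhox gene and the other genes of the fixed lists had been left out. The class levels are given as descriptions. Supporting cells were named as precursors of granulosa cells, from clusters with 7 or 8 raised supporting markers. Foxl2, a granulosa cell marker, was nearly absent from them, with 4, 4, 7 and 1 UMIs in stage order. Its levels there were 0.1101, 0.1477, 0.3313 and 0.1437 CPM, so this gene does not bear out the name. In supporting cells Rhox5 was at 5.92, 4.505, 6.48 and 10.5 CPM in stage order, Rhox6 at 2.95, 3.10, 4.35 and 4.60, and Rhox9 at 3.19, 4.62, 6.86 and 9.63. In interstitial cells Rhox5 was at 11.6, 5.45, 7.09 and 10.2 CPM, Rhox6 at 1.99, 2.35, 4.51 and 4.38, and Rhox9 at 3.52, 4.33, 7.09 and 7.67. The clusters led by Upk3b and Krt19, genes of the surface epithelium, were left unnamed. Each had 5 raised markers of the surface epithelium, against 8 interstitial or 6 supporting markers. Their ranges were 3.78 to 8.36 CPM for Rhox5, 2.97 to 4.85 for Rhox6 and 3.96 to 8.97 for Rhox9. The small endothelial and immune classes, of 19 to 192 cells, had 1 to 18 UMIs of Rhox5, 0 to 14 of Rhox6 and 1 to 19 of Rhox9 in a library.

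Beside these levels stands what other germ cell transcripts did in the same somatic cells. Of 13 germ cell genes outside the rule (such as Dppa3, Pou5f1, Sycp3 and Tdrd1), those with at least 100 UMIs in germ cells had a median of 0.558%, 0.779%, 0.959% and 1.71% of their germ cell level in the somatic classes. Rhox6 was at 0.420%, 0.479%, 0.942% and 1.35% of its germ cell level there and Rhox9 at 0.391%, 0.501%, 0.903% and 1.4996%. Both were below the median of the list at each stage; where these UMIs came from was not tested. Rhox5 was at 0.979%, 0.705%, 1.25% and 2.03%, above the median at 3 of 4 stages. The E14.5 shares for Rhox5, Rhox6 and Rhox9 were 2.19%, 1.31% and 1.54% without the cells with a Y-linked UMI.

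Rhox5 departed from the other members in the supporting cells of E11.5, given below, and in the interstitial cells of that stage. There it was at 1.91% (1.55 to 2.33) of its germ cell level from 99 UMIs in 643 cells, while Rhox6 was at 0.305% (0.177 to 0.489), Rhox9 at 0.406% (0.274 to 0.580) and the germ gene list at a median of 0.497%, with a range from 0 to 1.63%. The interval of Rhox5 does not meet those of Rhox6 and Rhox9. The cell with the most held 13 of the 99 UMIs, and without it the level was 10.1 CPM in place of 11.6. In the supporting cells of E11.5 Rhox5 was also above both, at 5.92 CPM (5.15 to 6.76) from 215 UMIs. Rhox6 was there at 2.95 CPM (2.41 to 3.56) and Rhox9 at 3.19 (2.64 to 3.83). A further departure rested on 1 cell. In the 31 erythroid cells of E12.5 Rhox5 was at 58.9 CPM from 54 UMIs. Of these, 52 lay in a cell of 67250 UMIs with 0 UMIs of Rhox6 and Rhox9. Without that cell the level was 2.35 CPM.

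Rhox8, which lies between Rhox6 and Rhox9 on the chromosome, had the opposite distribution. It was at 51.8, 39.7, 32.9 and 94.5 CPM in supporting cells in stage order and at 9.83, 8.19, 6.99 and 4.52 CPM in germ cells. In the clusters led by Upk3b it was at 2.27, 3.51, 5.62 and 21.4 CPM, and in interstitial cells at 1.53, 2.10, 0.921 and 9.39. Without the cells with a Y-linked UMI, its E14.5 level in supporting cells was 98.6 CPM, and those of Rhox5, Rhox6 and Rhox9 were 10.5, 4.77 and 9.54.

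Rhox5, Rhox6 and Rhox9 made up most Rhox UMIs of germ cells, and less of them at the later stages. Together they held 89.997%, 89.987%, 85.7% and 72.8% (72.3% without the cells with a Y-linked UMI) of all Rhox UMIs in germ cells. In their last 300 bases, copies of Rhox2, Rhox4 and Rhox7 share 45.4% to 100% of windows with another Rhox gene, and the members 0%. Reads of those copies may have gone uncounted, so the share held by the members may be too high. All 27 Rhox genes summed to 2367, 2465, 2016 and 1898 CPM. Of the 24 others, 7 met the minimums for E14.5 against E11.5, 2 were higher by a ratio of 4 (against 6.46% of all genes), 5 were higher by a ratio of 1.5 (against 37.1%) and 1 was lower (against 16.5%). Of the libraries compared, Rhox13 and Rhox7a reached 20 CPM at E14.5 alone and Rhox4c at E11.5 alone, so the minimum admitted them through the stage where they were high, and the counts are a description. The counts at a ratio of 1.5 were the same without the cells with a Y-linked UMI.

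The Rhox genes past a ratio of 4 were Rhox1 and Rhox13, both of which share no 50-base window with another Rhox gene. Rhox1, at the end of the cluster, was at 27.3, 36.8, 54.6 and 141 CPM in germ cells, a log2 ratio of 2.36 (2.17 to 2.57). Rhox13, a gene known from fetal and adult germ cells, was at 7.06, 9.13, 7.14 and 47.4 CPM, a log2 ratio of 2.75 (2.37 to 3.16). The E14.5 library was thus the high one for both, and for Rhox13 the other 3 lay close together. Rhox7a and Rhox7b, the neighbours of Rhox6 and Rhox9, summed to 34.9, 34.6, 53.9 and 118 CPM, a log2 ratio of 1.75. The 7 copies of Rhox2 summed to 121, 121, 139.9 and 182 CPM and the 8 copies of Rhox4 to 37.0, 36.5, 24.6 and 20.9. Reads of the Rhox2, Rhox4 and Rhox7 copies may not be assignable to a given copy, since they share 44.7% to 98.3% of their windows. Their sums are given for this reason. How many reads of these copies went uncounted is not known, so the sums may be too low. Without the cells with a Y-linked UMI the log2 ratios were 2.37 for Rhox1, 2.78 for Rhox13 and 1.77 for the Rhox7 sum. With median-of-ratios scaling they were 1.98, 2.36 and 1.37, which put Rhox1 just under the ratio of 4.

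**Figure D4:**
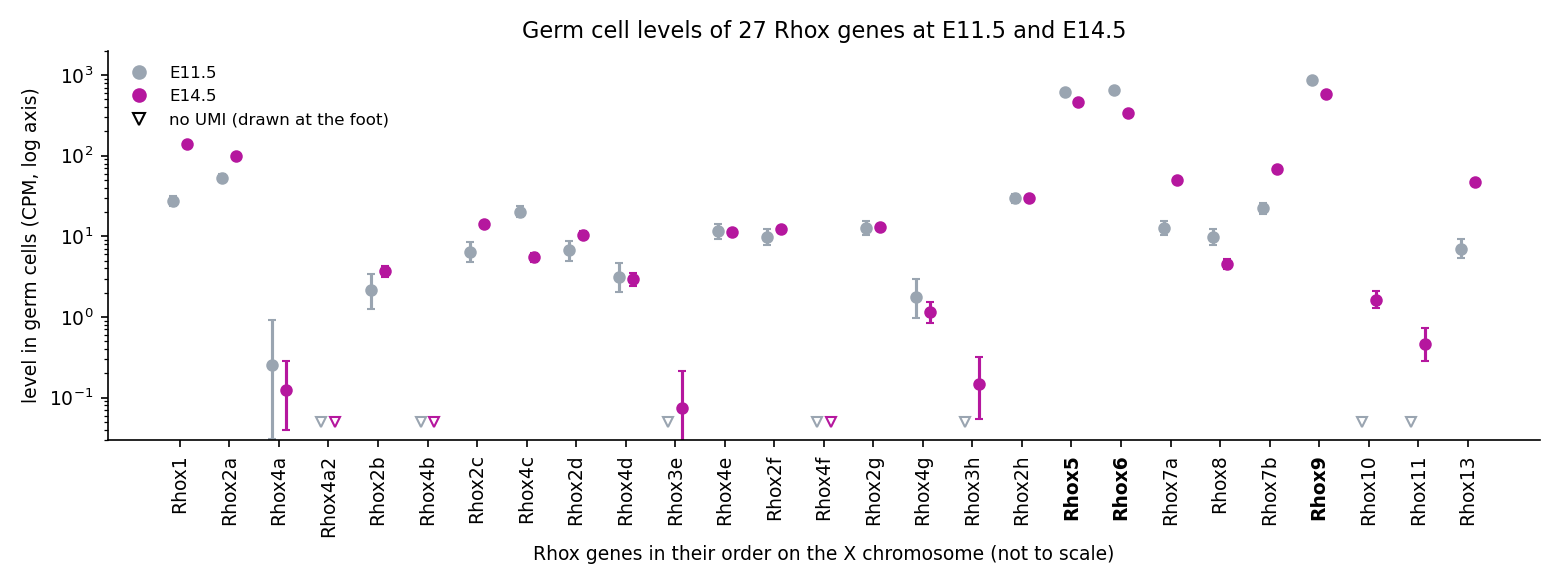
Levels (CPM, log axis) of the 27 Rhox genes in germ cells at E11.5 and E14.5, in their order along the X chromosome (not to scale); bars are exact 95% Poisson intervals, and open triangles mark genes with no UMI. Rhox5, Rhox6 and Rhox9 are the 3 highest genes at both stages and lower at E14.5, while Rhox1 is at 27.3 and 141 CPM.

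Within the E14.5 library, other Rhox genes differed in their course over the meiosis sets. Over the 5 sets of E14.5 germ cells in order of meiosis UMIs, Rhox13 was at 9.79, 17.3, 40.3, 73.4 and 128 CPM and Rhox1 at 76.8, 121, 155, 199 and 185. The Rhox7 sum was at 61.6, 74.0, 113, 182 and 200.2 CPM. The Rhox2 sum was highest in the fourth set, at 153, 179.6, 208 and 231 CPM and then 147, and the Rhox4 sum was at 19.98, 20.5, 25.7, 25.3 and 12.02 CPM. In the set with the most meiosis UMIs, Rhox5 (195 CPM), Rhox6 (184) and Rhox1 (185) had intervals that overlap. In that set Dazl, a germ cell gene of the rule, was at 1102 CPM against 696 in the lowest set, and Dppa3 at 108 against 756.

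The X-linked genes around the cluster did not move as a block. Of 13 neighbours in the table, 6 met the minimums for germ cells of E14.5 against E11.5, 2 were higher by a ratio of 1.5 (against 37.1% of all genes) and 1 was lower (against 16.5%), with a median log2 ratio of 0.46. Ndufa1, a subunit of respiratory complex I, went from 154 to 318 CPM, Upf3b, a factor of nonsense-mediated decay, from 68.7 to 117, and Slc25a5, an ADP/ATP carrier, from 874 to 225. The members were thus below the median of their neighbours, and Slc25a5 was lower than any of the 3. X-linked genes without the Rhox genes, Xist and Tsix (chromosomes from RefSeq) held 3.24%, 3.31%, 3.93% and 4.26% as many UMIs as autosomal genes in germ cells, in stage order. Rhox genes made up 7.41%, 7.54%, 5.36% and 4.68% of the X-linked UMIs.

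Genes of DNA methylation, the mark that silences the cluster in somatic tissue, were read from a list of 8. In germ cells 4 met the minimums, 3 were higher at E14.5 than at E11.5 by a ratio of 1.5 (against 37.1%) and 0 were lower. The maintenance factor Uhrf1 went from 7.44 to 43.8 CPM, past a ratio of 4, Dnmt1 from 98.3 to 172 and Dnmt3a from 15.2 to 23.5. Of the libraries compared, Uhrf1 and Dnmt3a reached 20 CPM at E14.5 alone. The minimum thus admitted them through the stage where they were high, and the count is a description. Tet1, which oxidises methylated cytosine, went from 52.5 to 40.1 CPM, a log2 ratio of -0.39. Of 10 factors reported at Rhox5 promoters, 4 met the minimums and 1, Gata2, was higher, from 22.9 to 58.4 CPM, against 37.1% of all genes.

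The meiosis and pluripotency lists show the germ cell change that the members sit in. Of 13 meiosis genes 10 met the minimums and 10 were higher by a ratio of 1.5 (against 37.1%). Thinned germ cells of E11.5 held 0 UMIs of Stra8, so the minimum admitted it through the stage where it was high. The 13 genes together summed to 19.7 to 244 CPM over the E11.5 sets. The same can hold for others of them, and the count is a description. Of 9 pluripotency genes 8 met them and 6 were lower (against 16.5%), with a median of -0.88. Rhox6, at -0.94, stood near that median, Rhox5 and Rhox9 nearer to 0. Among the pluripotency genes Nanog was lower by a ratio of 4, from 45.6 to 7.22 CPM, Dppa3 went from 836 to 473, and Pou5f1 from 140.3 to 175. Nanog reached 20 CPM at E11.5 alone of the libraries compared, so it was admitted through the stage where it was high. Without the cells with a Y-linked UMI, the counts past a ratio of 1.5 in these lists and in those of X-linked neighbours, methylation genes and promoter factors were the same.

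Among the genes with the most similar profile were Dppa3 for all 3 members and Rhox9 for Rhox5 and Rhox6. Likeness was the Pearson correlation of log2(CPM + 1) over 22 sets of cells (each a class in a library, at least 50 cells), among 13203 genes with at least 50 UMIs in germ cells. Rhox9 came closest to Dppa3 (0.996), Rhox6 (0.995), Pou5f1 (0.993), Rhox5 (0.989) and Arl14epl (0.989). Rhox6 came closest to Rhox9 (0.995), Dppa4 (0.993), Dppa3 (0.993), Foxr1 (0.992) and Nlrp4c (0.992). Rhox5 came closest to Dppa3 (0.990), Rhox9 (0.989), Rhox2f (0.987), Nlrp4c (0.984) and 2310039L15Rik (0.984). Only 4 of the 22 sets were germ cells, and the sets of a stage share a library, so the values mostly describe the gap between germ and somatic cells.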

How the data were processed

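Single gonad cells of 4 stages were profiled with 1 library per stage. Reads were processed with Cell Ranger 2.2.0 and mm10, per the submitters' processing notes; other steps are not given in the sources used here. The deposited values are natural log values: the authors scaled each cell to 10000 UMIs, added 1 and took the log, as the values themselves show. Undone, they add up to 10000 per cell, and 100.0% of the 69792436 values above 0 were whole numbers of UMIs at a relative tolerance of 1e-06. UMI counts were recovered from these and used throughout, where the plan had assumed counts.

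Cells with over 20% mitochondrial UMIs (3 or fewer per library) and called doublets (113, 104, 106 and 94 cells, by a Scrublet-type score) were removed. Cells were clustered with scanpy 1.11.5 (2000 variable genes, 30 principal components, 15 neighbours, Leiden resolution 1). Clusters took a class name from marker lists with at least 3 raised markers, 2 more than any other type. This margin was set after the clusters had been seen. A cluster also stayed unnamed where another type had more markers among its 10 leading genes, or where its median doublet score was above 0.15. Summed UMIs carry exact Poisson, ratios exact binomial and shares Clopper-Pearson 95% intervals. Ratio intervals and UMI recovery were tested on simulated data. UMIs are counted per gene symbol in Python 3.11.15 with scipy 1.17.1. Positions and sequences come from GENCODE M21 on mm10.

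The members and gene lists were chosen with earlier results of these data known. Named genes are the members, every Rhox gene, the genes of fixed lists and, for likeness, the 5 best correlated genes per member. Alternatives covered the germ cell rule, doublets, depth, scaling, thinning, cluster resolution and Y-linked UMIs. Promoters and proteins of the members were not used here.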

Additional observations from a re-analysis of the deposited data

Results flagged for a closer look

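In the E14.5 library, labelled XX, 18.0% of germ cells (16.5 to 19.6) and 22.7% of somatic cells (20.9 to 24.6) had a UMI of a Y-linked gene. These genes are outside the main measurement. The share stands out because the other 3 libraries had 0 such UMIs in germ and somatic cells. The germ cells with a Y-linked UMI had 824 CPM of Stra8 and those without 934 CPM, and their levels of Rhox5, Rhox6 and Rhox9 were 516, 377 and 644 CPM against 452, 331 and 563. The cause was not tested.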

How the results depend on the processing

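No paired analysis was possible because each stage has 1 library and 1 replicate number. Log2 ratios are given for Rhox5, Rhox6 and Rhox9 in that order unless a gene is named, and under the alternatives run each kept its direction but for Rhox6 at E12.5 below. For germ cells of E14.5 over E11.5 they were -0.24, -0.80 and -0.44 with at least 2 markers, -0.31, -0.86 and -0.53 with cells thinned to 5000 UMIs before the rule, -0.32, -0.89 and -0.52 with germ cells from named clusters, and -0.78, -1.33 and -0.97 with median-of-ratios size factors. Rhox5 and Rhox9 were at -0.34 and -0.53 with cells that met the rule and lay in a germ cluster, and at -0.48 and -0.70 as means over cells of log2(1 + UMIs per 10000). Rhox9 was at -0.63 with at least 4 markers and at -0.62 without cells with a Y-linked UMI. Of the 3 members, those lower by 1.5 times numbered 2 with at least 4 markers (17.0% of all genes), 2 without cells with a Y-linked UMI (17.1%) and 3 with median-of-ratios size factors (29.0%), in place of 1 (16.5%). For germ over somatic cells at E13.5 the ratios were 5.17, 5.39 and 5.38 with at least 4 markers, 3.39, 3.41 and 3.44 with thinning before the rule, 6.32, 6.73 and 6.79 without germ cluster cells under 3 markers, 2.39, 2.28 and 2.86 as means over cells of the log2 values, 6.35, 6.85 and 6.91 with median-of-ratios size factors, and for Rhox5 6.21 with named clusters. At E12.5 the ratio of the highest to the lowest meiosis set of Rhox6 reversed to -0.051 with thinned cells; the cause was not tested. Other cluster resolutions left 71 of 72 levels by somatic class within their counting interval. Shares of cells with a UMI moved with the thinning depth in 24 of 24 cases. With 1 library per stage, the intervals hold counting error only, and the number of cells limits the endothelial and immune classes, whose 19 to 192 cells had at most 19 UMIs of a member in a library.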
